A study of Mus musculus with 36 samples.

Results

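The 10 genes described here were the Toll-like receptors Tlr1, Tlr2, Tlr3, Tlr4, Tlr6, Tlr7, Tlr8, Tlr9 and Tlr13 and the co-receptor Cd14. They were taken by symbol from the 2 deposited count tables, and all 10 were present among the 49568 gene rows of each table. Their level was followed in every library, with replicates 1–3 and replicates 4–6 of each group kept apart. The main changes were in Tlr9, Tlr2 and Tlr8. Tlr9 was higher than in PBS in the 3 sets of peptide libraries of the IFNγ series in which all 12 IFNγ response genes were called higher, and in the Il-4 series Tlr2 was lower and Tlr8 higher with either peptide than in PBS.

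Toll-like receptors are membrane proteins of innate immune cells that bind conserved microbial molecules and signal through adaptor proteins to NF-κB and interferon regulatory factors. Tlr1, Tlr2, Tlr4 and Tlr6 act mainly at the cell surface, where Tlr2 pairs with Tlr1 or Tlr6 to bind lipopeptides and Tlr4 binds endotoxin with help from Cd14. Tlr3, Tlr7, Tlr8, Tlr9 and Tlr13 act in endosomes and sense nucleic acids, double-stranded RNA by Tlr3, single-stranded RNA by Tlr7, unmethylated CpG DNA by Tlr9 and bacterial ribosomal RNA by Tlr13. Macrophages use both groups, and interferons and interleukins are known to change how much of each receptor they make.

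RAW 264.7 is an established mouse macrophage line. Its cells were cultured for 72 h, with fresh medium at 48 h, in an IFNγ series (5 ng/ml, M1 polarizing conditions) and an Il-4 series (5 ng/ml, M2 polarizing conditions). Each series held 6 libraries of PBS, 6 of the 15-mer peptide 65–79*SE (labelled 65-79*0401) and 6 of 65–79*PE (labelled 65-79*0402), with each peptide at 100 μg/ml, which gave 36 libraries. The peptides copy one stretch of the human HLA-DRβ chain, from an allele with the shared epitope (SE) or the protective epitope (PE). The labels name PBS by series but do not settle whether those cells also received the cytokine, and all libraries come from 1 cell line, so they vary as cultures and not as animals. In RNA from bulk cultures, fewer cells with a transcript and less transcript per cell cannot be told apart.

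The libraries held 20.67 to 63.16 M counts in the IFNγ series and 17.05 to 30.64 M in the Il-4 series. Summed macrophage markers ran from 3003 to 10290 CPM (counts scaled to 1 M per library, with TMM factors), against at most 0.132 CPM for T cell, 0.294 for B cell, 0.118 for fibroblast and 0.0584 for epithelial cell markers, and neutrophil markers reached 1.10 and dendritic cell markers 2.53 CPM. The mean log2 CPM of 12 IFNγ response genes was 0.41 and 0.67 in PBS replicates 1–3 and 4–6, 6.11 and 6.27 with 65–79*PE, and 6.19 with 65–79*SE in replicates 1–3. It was 0.52 in the libraries labelled 65–79*SE, replicates 4–6, which therefore go against their label, and their values are read below as those of the libraries so labelled. In the Il-4 series 10 Il-4 response genes were at -1.72 and -1.90 in PBS and between 0.47 and 1.06 in the 4 peptide sets. Some of the IFNγ response genes were also called higher in replicates 1–3 of that series, 5 of 8 tested with the SE and 4 of 8 with the PE peptide. There 6.44% and 3.95% of all genes were called in either direction. In replicates 4–6 0 of 6 were called by edgeR, where 1.05% and 2.24% of all genes were called. Tlr9 had log2 values of -0.18 and -0.26 against PBS in those replicates 1–3. Since PBS carried neither response, a contrast of a peptide with PBS holds the peptide and the cytokine response together, and the PBS libraries are shared by both peptides. Genes that code for protein took 85.1 to 85.7% of the counts in replicates 1–3 and 62.1 to 69.8% in replicates 4–6 of the IFNγ series, and 95.4 to 97.5% and 78.6 to 87.4% in the Il-4 series.

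The promoters of the 3 genes that the results turn on most are printed here so that the changes can be read beside the DNA upstream of them. RefSeq (GRCm38.p6) gave a promoter window for 7 of the 10 genes, and 250 bases before the start were searched on both strands for 6 motifs. Bases inside exons of GENCODE M21 were left off, and capitals mark the motif matches. The windows are Tlr9 at chr9:106222348-106222597 (plus strand), Tlr2 at chr3:83841768-83841858 (minus strand) and Tlr8 at chrX:167264330-167264579 (minus strand), each written 5′ to 3′ along its gene.
Tlr9: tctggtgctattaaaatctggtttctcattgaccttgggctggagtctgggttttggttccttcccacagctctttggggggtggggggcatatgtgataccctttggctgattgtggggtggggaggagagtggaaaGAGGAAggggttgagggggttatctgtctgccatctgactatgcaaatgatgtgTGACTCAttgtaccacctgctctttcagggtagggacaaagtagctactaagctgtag
Tlr2: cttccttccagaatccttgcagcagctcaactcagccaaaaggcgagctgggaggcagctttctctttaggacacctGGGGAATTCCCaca
Tlr8: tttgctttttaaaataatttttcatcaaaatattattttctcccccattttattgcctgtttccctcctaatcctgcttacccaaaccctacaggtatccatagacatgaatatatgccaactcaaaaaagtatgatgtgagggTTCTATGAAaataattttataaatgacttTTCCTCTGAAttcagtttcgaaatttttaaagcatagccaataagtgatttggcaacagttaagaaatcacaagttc

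Tlr9 held the PU.1 core GAGGAA at 112 bases and the AP-1 motif TGANTCA at 58 bases before its start, and these are found in 23.3% and 6.75% of the 32851 windows of that length. Tlr2 held overlapping matches of the NF-κB motif at 173 and 172 bases before its RefSeq start, a motif present in 3.9% of windows. GENCODE M21 places the start of Tlr2 further upstream, at 83841767, so the printed Tlr2 stretch ends close to this motif. Tlr8 held the GAS motif TTCNNNGAA at 106 bases (7.02% of windows) and the wider form that STAT6 prefers, TTC and GAA with any 4 bases between them, at 77 bases (5.85%), the latter overlapping GAGGAA on the other strand. The interferon-stimulated response motif, GAAA and GAAA with any 2 bases between them, present in 2.98% of windows, was in none of these 3. A match is a description of the letters and not a shown binding site.

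Per length, Cd14 (chromosome 18, 36725067 to 36726798) had the highest level of the 10 genes in all 12 sets of 3 libraries, with means of 118.4 to 463.3 CPM per kb of exon. Tlr7 ranked 2 or 3, Tlr2 2 to 4 and Tlr4 3 to 7, and Tlr4 lay above Tlr2 with either peptide in replicates 4–6 of the Il-4 series. Tlr13 ranked 4 or 5, Tlr1 5 to 7 and Tlr6 7 or 8. In PBS replicates 1–3 of the IFNγ series the order was Cd14 at 268 ± 9.24 (SD, n = 3), Tlr2 at 32.5 ± 1.75, Tlr7 at 22.4 ± 5.20, Tlr13 at 12.7 ± 2.08, Tlr4 at 5.01 ± 1.15, Tlr1 at 4.68 ± 0.121, Tlr6 at 4.60 ± 0.0717, Tlr9 at 1.80 ± 0.218, Tlr3 at 0.734 ± 0.111 and Tlr8 at 0.294 ± 0.174 CPM per kb. Tlr4, Tlr1 and Tlr6 overlapped their neighbours in that order and the other steps did not overlap.

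**Figure D1:**
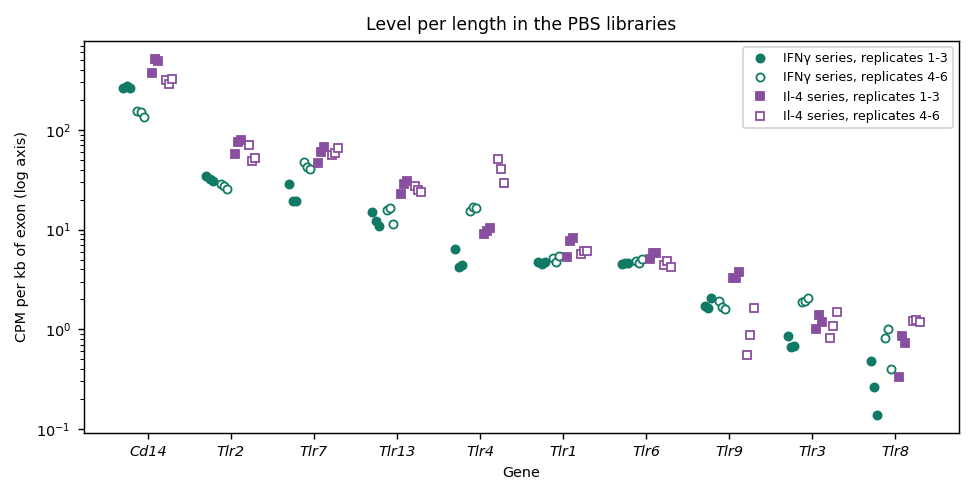
Level per exon length (CPM per kb, log axis) of the 10 genes in the PBS libraries, 1 point per library, circles for the IFNγ series, squares for the Il-4 series, filled for replicates 1–3 and open for replicates 4–6. Cd14 lies highest in every set, and the open symbols of Tlr4 lie above its filled ones in both series.

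The PBS libraries of the 2 sets of replicates differed in several of these genes, with no test made since the set, its experiment and its RNA makeup cannot be told apart. Tlr4, the endotoxin receptor, was at 27.9 ± 6.40 CPM in PBS replicates 1–3 and 90.5 ± 5.32 in replicates 4–6 of the IFNγ series (n = 3 each), 3.25 times as high. In the Il-4 series its PBS levels were 54.0 ± 3.99 and 225 ± 61.5 CPM, 4.16 times as high, and the libraries did not overlap in either series. Cd14, which hands endotoxin to Tlr4, went the other way, at 465 ± 16 and 254 ± 18.5 CPM in the IFNγ series and 803 ± 136 and 539 ± 30.9 CPM in the Il-4 series, again without overlap. Tlr3 and Tlr7 were 2.67 and 1.93 times as high in replicates 4–6 in the IFNγ series, and overlapped between the sets in the Il-4 series. The Tlr9 PBS level was 0.296 times as high in replicates 4–6 of the Il-4 series and overlapped in the IFNγ series. The contrasts below were therefore fitted within each set.

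Tlr5, Tlr11 and Tlr12, the other mouse receptors of the family, passed the low count filter in no fit, with at most 2, 2 and 9 reads in any library. Tlr5 binds flagellin, and Tlr11 and Tlr12 bind profilin.

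In replicates 1–3 of the IFNγ series, 65–79*SE against PBS asked how cells with IFNγ response and peptide differ from control cells. Of the 10 genes, 4 were called at an adjusted p under 0.05 and a fold over 1.5, Tlr9 higher and Tlr2, Tlr7 and Tlr13 lower, where 22.8% of all genes tested were called. Tlr9 (chromosome 9, 106222598 to 106226883), the CpG DNA receptor, was at 5.93, 5.73 and 7.13 CPM in the PBS libraries and at 35.2, 29.5 and 31.6 CPM with 65–79*SE. The groups lay far apart, a log2 change of 2.38 (SE 0.11, edgeR quasi-likelihood adjusted p 4.2e-10). Tlr2 (chromosome 3, 83836272 to 83841767) was at 104, 97.0 and 93.4 CPM in PBS and at 44.7, 49.8 and 53.3 CPM with 65–79*SE. No Tlr2 value of the peptide group reached the lowest PBS value, and the log2 fold change was -0.97 (SE 0.07, adjusted p 5.1e-08).

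The RNA sensors Tlr7 and Tlr13 were lower too. Tlr7 (chromosome X, 167304929 to 167330558) was at 116, 78.8 and 79.8 CPM in PBS and at 48.7, 45.0 and 53.0 CPM with 65–79*SE, for a log2 change of -0.88 with an SE of 0.12 and an adjusted p of 4.5e-05. Tlr13 (chromosome X, 106143204 to 106160493) was at 64.3, 53.1 and 46.6 CPM in PBS and at 32.3, 31.5 and 34.5 CPM with 65–79*SE, for a log2 change of -0.72 with an SE of 0.10 and an adjusted p of 3.5e-05. In both genes PBS replicate 1 was the highest PBS library and the groups did not overlap. Without replicate 1 the Tlr13 value was -0.58 (adjusted p 0.00016), just under the 1.5-fold threshold.

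Tlr1, Tlr6 and Cd14 passed the p threshold with 65–79*SE but not the fold, at log2 fold changes of 0.47 (adjusted p 0.00015), -0.22 (0.031) and -0.16 (0.022). Tlr8 was at 1.73, 0.939 and 0.498 CPM in PBS and 0.441, 0.438 and 0.772 CPM with 65–79*SE, between 15 and 62 reads a library, and its value of -0.92 had a wide error (SE 0.39, adjusted p 0.068). Tlr3 and Tlr4 had values of 0.18 and -0.19 (adjusted p 0.45 and 0.31). The median over the 10 genes was -0.20 and that over all genes tested -0.014.

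With 65–79*PE in replicates 1–3 of the IFNγ series, Tlr9 was again called higher and Tlr7 and Tlr13 lower than PBS, 3 of 10 genes where 19.8% of all genes were called. Tlr9 stood at 23.3, 21.3 and 19.6 CPM, all above every PBS library and below every 65–79*SE library, a log2 change of 1.80 (SE 0.11, adjusted p 1.3e-08). Tlr7 was at 54.4, 65.3 and 54.3 CPM (-0.63, SE 0.12, adjusted p 0.00087) and Tlr13 at 28.9, 34.5 and 32.3 CPM (-0.75, SE 0.10, adjusted p 3.1e-05). Without replicate 1 both fell under the fold threshold, at -0.40 (adjusted p 0.00455) and -0.57 (adjusted p 0.00023), which left 1 called gene. Tlr2 at 64.3, 67.3 and 63.2 CPM just missed the fold threshold at -0.57 (SE 0.07, adjusted p 1.3e-05), and Tlr1, Cd14 and Tlr6 passed only the p threshold at 0.53, -0.44 and -0.23. The medians over the 10 genes and all genes were -0.37 and 0.0019.

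**Figure D2:**
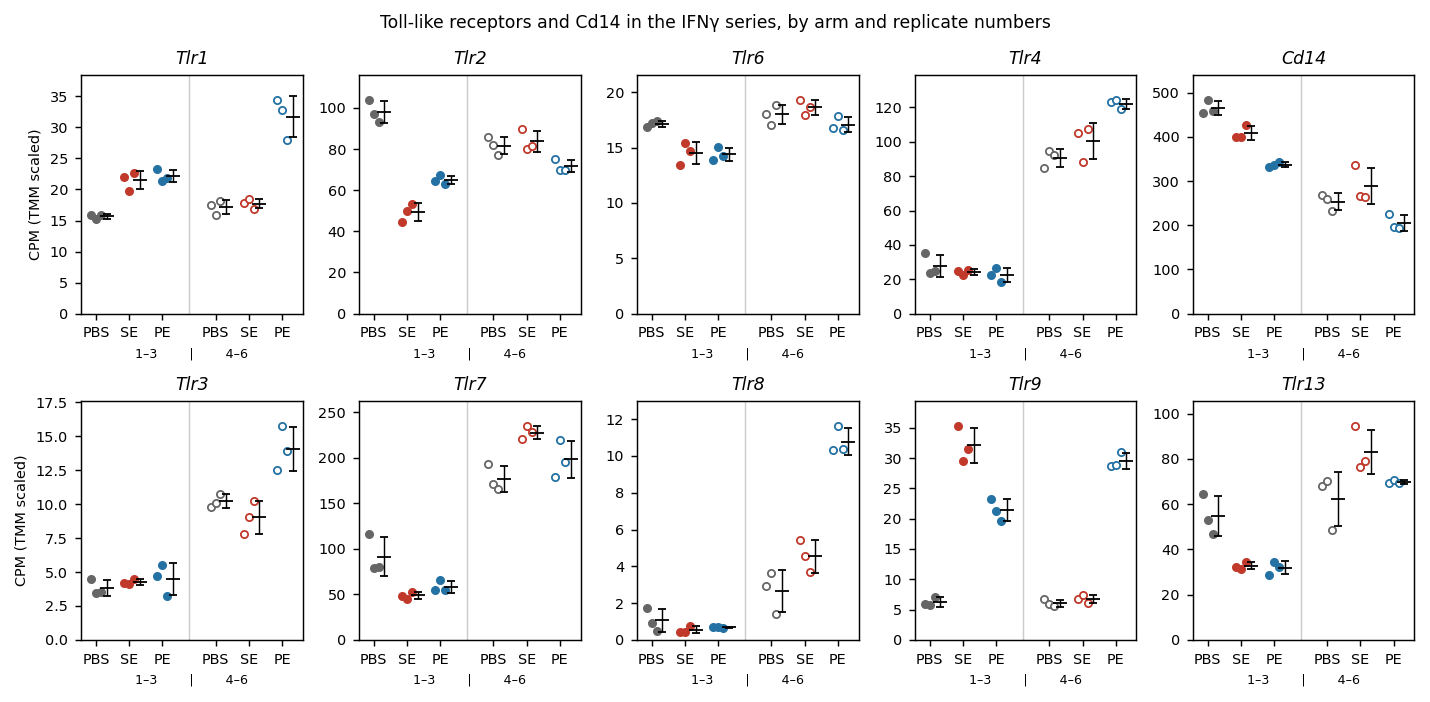
CPM (TMM scaled, linear axis from 0) of the 10 genes in the 18 libraries of the IFNγ series, 1 point per library, PBS grey, 65–79*SE red and 65–79*PE blue, filled for replicates 1–3 and open for replicates 4–6, with mean ± SD beside each set. Tlr9 is near 6 CPM in PBS of both sets and in the open red points, and above 19 CPM in the other 3 peptide sets.

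The direct comparison of the peptides in these replicates addresses how the 2 peptides differ under the same cytokine. In replicates 1–3 0 of the 10 genes were called by edgeR (3 at an unadjusted p under 0.05), where 6.08% of all genes were called. Tlr9 with 65–79*SE exceeded its level with 65–79*PE by 0.58 on the log2 scale (95% interval 0.37 to 0.78, adjusted p 0.00076), at the edge of the fold threshold. It passed that threshold at 0.59 without replicate 1 and at 0.61 without replicate 2. Tlr2 was lower with 65–79*SE by a log2 value of -0.40 (interval -0.55 to -0.26, adjusted p 0.00091) and Cd14 higher by 0.27 (interval 0.16 to 0.39, adjusted p 0.0027). Those 3 genes passed the p threshold alone. For the other 7 the intervals included 0 and the widest was that of Tlr8, from -1.20 to 0.58.

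Replicates 4–6 of the IFNγ series gave another picture for 65–79*SE. In the libraries so labelled Tlr9 was at 6.76, 7.48 and 6.03 CPM, against 6.68, 5.86 and 5.62 CPM in PBS, and the groups overlapped. None of the 10 genes was called by edgeR there (0 called, 3 at an unadjusted p under 0.05, and 1, Tlr8, called by DESeq2), where 0.72% of all genes were called. Tlr8, Tlr13 and Tlr7 had the largest values, 0.81 (SE 0.27, adjusted p 0.15), 0.44 (SE 0.12, 0.095) and 0.38 (SE 0.08, 0.051). These are the libraries in which the IFNγ response genes stayed at the PBS level.

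65–79*PE in replicates 4–6 called Tlr9, Tlr8 and Tlr1 higher than PBS, 3 of 10 genes where 10.8% of all genes were called and 6.16% were called higher. Tlr9 was at 28.7, 28.9 and 31.0 CPM (2.29, SE 0.10, adjusted p 1.3e-08), about the level of 65–79*SE in replicates 1–3. Tlr8 (chromosome X, 167242696 to 167264329) was at 2.95, 3.62 and 1.42 CPM in PBS, 60 to 162 reads a library, and at 10.3, 11.6 and 10.4 CPM with 65–79*PE, 249 to 409 reads, a log2 change of 2.05 (SE 0.25, adjusted p 9.4e-05). Tlr1 (chromosome 5, 64924679 to 64933563), the partner of Tlr2 for triacylated lipopeptides, was at 17.5, 15.9 and 18.2 CPM in PBS and at 34.4, 32.8 and 28 CPM with 65–79*PE (0.88, SE 0.09, adjusted p 3.1e-05). None of these 3 genes overlapped between groups, but neither did Tlr2, Tlr3, Tlr4 and Cd14, which were not called. The share of all genes without overlap was not computed, so a lack of overlap does not set these genes apart. Each of the 3 called genes kept its call in all 9 alternatives run on this comparison. Tlr3 (0.47, adjusted p 0.012), Tlr4 (0.44, 0.0020) and Cd14 (-0.30, 0.047) passed only the p threshold.

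The comparison of 65–79*SE with 65–79*PE in replicates 4–6 set libraries without an IFNγ response against libraries with one. It called Tlr9, Tlr8, Tlr1 and Tlr3 lower with 65–79*SE, 4 of 10 genes where 13.8% of all genes were called and 7.9% were called lower, at -2.12 (SE 0.11), -1.24 (SE 0.25), -0.83 (SE 0.10) and -0.62 (SE 0.12), with adjusted p from 3.1e-08 to 0.0025. Tlr3 (chromosome 8, 45395665 to 45411080), the double-stranded RNA receptor, was at 7.80, 9.07 and 10.2 CPM with 65–79*SE and 12.5, 15.7 and 13.9 CPM with 65–79*PE, and its call was lost without replicate 5 (-0.53, adjusted p 0.055). Tlr3 overlaps the antisense gene Gm45542 by 698 bases, and the strand option of the counting is not given in the sources used here. Cd14 was higher with 65–79*SE by 0.51 (SE 0.10, adjusted p 0.0025), under the fold threshold. Tlr2 and Tlr4 also passed only the p threshold, with mean CPM 1.17 and 0.823 times those with 65–79*PE.

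Over all 18 libraries with the set as a term, 65–79*PE called Tlr9 (2.09, SE 0.35, adjusted p 0.00033) and Tlr1 (0.70, SE 0.11, adjusted p 0.00021) higher than PBS, where 13% of all genes were called and 6.55% were called higher. 65–79*SE called Tlr9 alone (1.50, SE 0.36, adjusted p 0.021), where 3.57% were called and 2.83% were called higher, and that call was lost without replicate 1, 2 or 3 (1.21 to 1.31, adjusted p 0.14 to 0.17). With the libraries labelled 65–79*SE, replicates 4–6, left out, the pooled Tlr9 value was 2.52 (adjusted p 1.7e-11) and Tlr2, Tlr7 and Tlr9 were called. The pooled peptide comparison called 0 of 10 by edgeR (4 at an unadjusted p under 0.05), where 3.19% of genes were called. That fit included the libraries labelled 65–79*SE, replicates 4–6, and the Tlr9 difference between the peptides was opposite in sign between the sets. With those libraries left out, Tlr1 was at -0.14 (edgeR adjusted p 0.38) and Cd14 at 0.24 (0.026) in this comparison, neither of them called. The change differed between the sets in 8 genes for 65–79*SE against PBS (35.7% of all genes), 7 for 65–79*PE against PBS (11.5%) and 3 for the peptides against each other (28.8%).

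The Il-4 series changed 2 of the 10 genes and these were called in both sets, where 6.44% and 3.95% of all genes were called in replicates 1–3 and 1.05% and 2.24% in replicates 4–6 (65–79*SE and 65–79*PE against PBS). Tlr2 was at 172, 227 and 240 CPM in PBS replicates 1–3, at 74.0, 94.2 and 91.7 CPM with 65–79*SE and at 78.2, 105 and 104 CPM with 65–79*PE. Replicates 4–6 had Tlr2 at 215, 148 and 158 CPM in PBS, 76.0, 89.4 and 95.5 CPM with 65–79*SE and 96.4, 95.4 and 90.7 CPM with 65–79*PE. Every peptide library lay below every PBS library of its set. The log2 fold changes were -1.29 (SE 0.15, adjusted p 0.00082) and -1.14 (SE 0.15, 0.0016) in replicates 1–3 and -1.0 (SE 0.14, 0.010) and -0.88 (SE 0.14, 0.013) in replicates 4–6.

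Tlr8 went up in the same libraries. It was at 1.18, 3.04 and 2.63 CPM in PBS replicates 1–3, at 6.64, 4.08 and 4.70 CPM with 65–79*SE and at 11.8, 7.75 and 7.11 CPM with 65–79*PE. Replicates 4–6 had Tlr8 at 4.33, 4.49 and 4.28 CPM in PBS, 8.20, 20.2 and 21.0 CPM with 65–79*SE and 30.3, 28.4 and 31.0 CPM with 65–79*PE, which is 551 to 892 reads a library with 65–79*PE. The order PBS, 65–79*SE, 65–79*PE held without overlap in each set. The log2 fold changes against PBS were 1.18 (SE 0.33, adjusted p 0.032) and 1.98 (SE 0.33, 0.0062) in replicates 1–3 and 1.91 (SE 0.30, 0.014) and 2.78 (SE 0.30, 0.0014) in replicates 4–6.

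With 2 libraries a group these calls were often lost. Without replicate 1 both genes kept their calls in replicates 1–3, but the Tlr8 value with 65–79*SE was 0.65 (adjusted p 0.020) in place of 1.18. Without replicate 2 or 3 no gene was called in replicates 1–3 (Tlr2 -1.11 to -1.30, adjusted p 0.057 to 0.072, Tlr8 1.36 to 2.32, 0.081 to 0.23), and without replicate 5 none in replicates 4–6 (Tlr2 -1.11 and -0.98, Tlr8 1.76 and 2.84, adjusted p 0.16 to 0.49). Without replicate 6, Tlr8 with 65–79*PE was the only call left in replicates 4–6, with Tlr2 at -1.10 and -0.90 (adjusted p 0.078 and 0.095) and Tlr8 with 65–79*SE at 1.71 (0.13). Over all 18 libraries Tlr2 was at -1.17 (SE 0.11, adjusted p 1.5e-06) with 65–79*SE and -1.04 (SE 0.11, 5.4e-06) with 65–79*PE, and Tlr8 at 1.54 (SE 0.25, 0.00062) and 2.37 (SE 0.25, 3.6e-06), where 3.1% and 4.35% of all genes were called. These 4 pooled values kept their calls whichever replicate number was left out. The remaining 8 genes had pooled values between -0.27 and 0.23, with adjusted p of 0.15 or more, and Tlr9 was at -0.24 (SE 0.27) and -0.26 (SE 0.27).

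**Figure D3:**
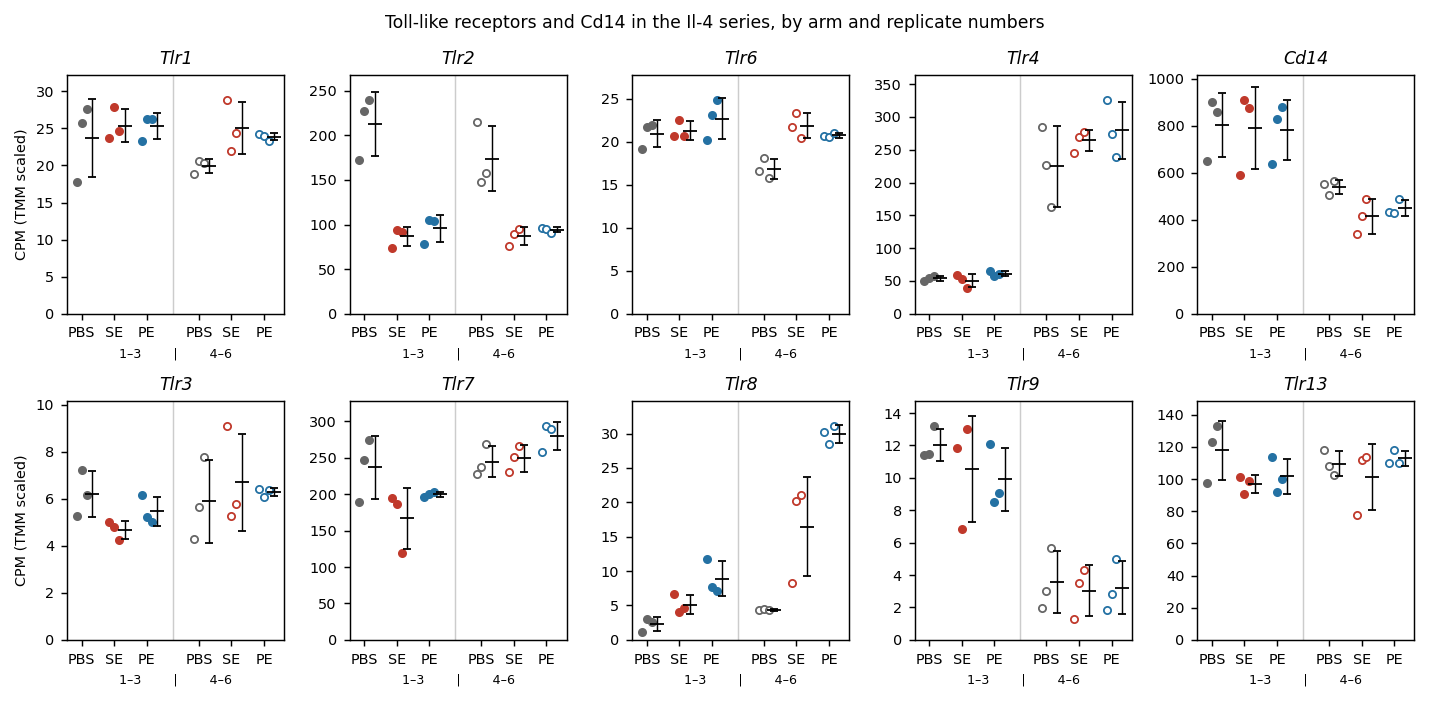
CPM (TMM scaled, linear axis from 0) of the 10 genes in the 18 libraries of the Il-4 series, drawn as for the IFNγ series. Tlr2 is lower in all 12 peptide libraries than in the PBS libraries of its set, and Tlr8 is lowest in PBS and highest with 65–79*PE in each set.

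Between the peptides 0 of 10 genes were called in the Il-4 series in either set or over both by edgeR (1 gene, Tlr8, at an unadjusted p under 0.05 each time), where 0%, 0% and 0.00741% of all genes were called. Tlr8 was lower with 65–79*SE than with 65–79*PE by -0.79 (95% interval -1.47 to -0.12) in replicates 1–3, by -0.87 (-1.47 to -0.27) in replicates 4–6 and by -0.83 (-1.31 to -0.36, adjusted p 0.36) over both. Tlr2 differed by -0.13 (interval -0.37 to 0.10) over both sets. For the other 8 genes the pooled interval included 0, reaching from 0.17 either side of the value for Tlr6 to 0.57 for Tlr9. Differences inside those intervals were not excluded, and a larger one could go uncalled, as that of Tlr8 did. No gene of the 10 was called as changing differently between the sets in this series (0 called for each contrast by edgeR, and 2, 1 and 0 at an unadjusted p under 0.05), where 4.39%, 0.00705% and 0% of all genes were. The intervals of these differences reached from 0.30 either side of the value for Tlr6 to 1.2 for Tlr9, so a difference between the sets was not excluded.

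**Figure D4:**
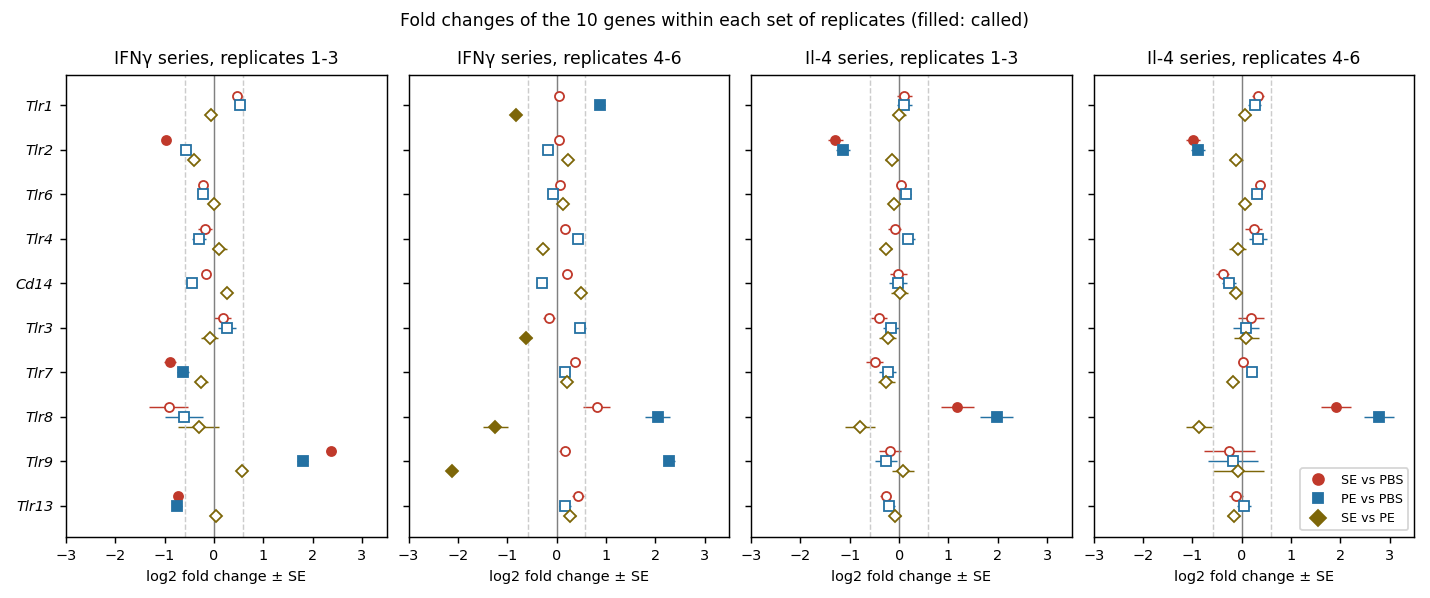
Log2 fold change ± SE of the 10 genes within each set of replicates, red circles for 65–79*SE against PBS, blue squares for 65–79*PE against PBS and brown diamonds for 65–79*SE against 65–79*PE, filled where called, with dashed lines at a fold of 1.5. Tlr9 lies at 1.80 to 2.38 in 3 peptide contrasts of the IFNγ series and near 0 in the Il-4 series, where Tlr2 and Tlr8 hold the filled points.

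The change of a peptide group against its own PBS was compared between the series within each set of replicates. The labels of replicates 4–6 follow a different naming scheme in each series, and do not say whether these libraries belong to 1 experiment. Tlr9 differed by 2.52 (SE 0.25, adjusted p 5.1e-07) for the SE and 2.05 (SE 0.25, 8.6e-06) for the PE peptide in replicates 1–3, and by 2.47 (SE 0.49, 0.0023) for 65–79*PE in replicates 4–6, higher in the IFNγ series each time. Tlr8 in replicates 1–3 differed by -2.14 (SE 0.55, adjusted p 0.0055) and -2.6 (SE 0.54, 0.0015), lower in the IFNγ series. Without replicate 1 the first of these was -0.91 (adjusted p 0.11), and without replicate 5 the Tlr9 difference in replicates 4–6 was 2.49 (adjusted p 0.13). The Tlr13 differences in replicates 1–3, -0.48 and -0.57, were -0.20 (adjusted p 0.22) and -0.19 (0.31) without replicate 1. In all, 3, 5, 1 and 4 of the 10 genes differed between series for the SE and the PE peptide against PBS in replicates 1–3 and then in replicates 4–6, where 33.6%, 24.4%, 2.57% and 13.9% of all genes did. For the SE against the PE peptide, 0 of the 10 differed between series in replicates 1–3 by edgeR (0 at an unadjusted p under 0.05), where 6.83% of all genes did, and 4 in replicates 4–6 (Tlr9, Tlr1, Cd14 and Tlr7), where 17% did. That last comparison includes the libraries labelled 65–79*SE without an IFNγ response.

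Tlr1 and Tlr6 lie 18467 bases apart on chromosome 5, and 259 windows of 100 bases are identical between their transcripts, 7.89% of those of Tlr1 and 7.09% of those of Tlr6. Reads from these stretches align to both, and the authors kept only uniquely aligned reads, so the levels of both genes are uncertain to that extent. Tlr6 (chromosome 5, 64952031 to 64960097), which pairs with Tlr2 for diacylated lipopeptides, ranged only from 13.4 to 24.8 CPM over all 36 libraries and was called in no contrast within a set or over both. Tlr8 and Tlr7 are neighbours 40599 bases apart on chromosome X, and in the Il-4 series Tlr8 was called against PBS while Tlr7 had values of -0.50 and -0.23 in replicates 1–3 and 0.03 and 0.20 in replicates 4–6 (SE and PE peptide), none of them called.

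The pathway around the receptors was followed through 56 genes in 8 lists, of which 45 to 49 passed the filter. In replicates 1–3 of the IFNγ series 15 were called higher and 1 lower with 65–79*SE than in PBS, and 14 and 5 with 65–79*PE, where 22.8% and 19.8% of all genes were called. These counts were, for replicates 4–6, 0 and 7 with 65–79*SE and 7 and 3 with 65–79*PE, where 0.72% and 10.8% of all genes were called. The Il-4 series had 3 and 5 with 65–79*SE and 3 and 4 with 65–79*PE in replicates 1–3, and 1 and 0 and 2 and 0 in replicates 4–6, where the shares of all genes were 6.44%, 3.95%, 1.05% and 2.24%. The median over the pathway genes lay between -0.12 and 0.23 in every contrast within a set or pooled, with medians over all genes between -0.051 and 0.0070.

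Cd36, a scavenger receptor that serves the Tlr2 complexes and belongs to the accessory proteins here, had one of the 3 largest called changes of the pathway genes at 10 CPM or more in several contrasts. In the IFNγ series it was at 76.4 ± 18.3 CPM in PBS, 691 ± 72.5 with the SE peptide and 321 ± 41.5 with the PE peptide in replicates 1–3, log2 changes of 3.20 (SE 0.14, adjusted p 4.1e-10) and 2.10 (SE 0.14, 3.5e-08). The levels in replicates 4–6 were 164 ± 24.6, 171 ± 4.22 and 756 ± 72.1 CPM, and 65–79*PE alone was called (2.21, SE 0.11, adjusted p 2.1e-08). In the Il-4 series it was called higher with both peptides in both sets, at 0.96 and 1.20 in replicates 1–3 and 1.32 and 1.30 in replicates 4–6, with adjusted p from 0.0046 to 0.039.

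Among the 14 target genes of Toll-like receptor signalling, 11 were tested in replicates 1–3 of the IFNγ series and 9 were called higher with 65–79*SE, with a median of 2.26, where 22.8% of all genes were called in either direction. Ptgs2, the inducible cyclooxygenase, was at 3.09 ± 0.757 CPM in PBS, 105 ± 16.4 with 65–79*SE (5.11, SE 0.21, adjusted p 1.7e-10) and 36.0 ± 9.71 with 65–79*PE (3.57, SE 0.21, 1.1e-08). The chemokine gene Ccl5 was at 1.02 ± 0.141 CPM in PBS and 54.8 ± 5.10 with 65–79*SE (5.76, SE 0.12, adjusted p 1.5e-13), and exceeded its 65–79*PE level by 2.48 (SE 0.09, 2.8e-09). With 65–79*PE 8 of the 11 were called higher and 2 lower (19.8% of all genes called), Cxcl2 at 1.44 (SE 0.19, adjusted p 3.0e-05) among the former. Irf7, a factor that drives type I interferon genes, exceeded its 65–79*PE level with 65–79*SE by 1.40 (SE 0.09, adjusted p 5.1e-07), and 7 of the 11 targets were called higher in that comparison, where 6.08% of all genes were called.

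The targets of replicates 4–6 of the IFNγ series were counted in the same way. With 65–79*PE 3 of 10 tested targets were called higher and 2 lower than PBS (10.8% of all genes called), with Ptgs2 at 2.57 (SE 0.33, adjusted p 0.00012) and Nfkbiz, an inducible IκB protein, at 1.55 (SE 0.11, 9.2e-07). In the libraries labelled 65–79*SE 0 of 10 were called higher and 5 lower (0.72% of all genes called), with Ptgs2 at -1.69 (SE 0.36, adjusted p 0.048), Cxcl2 at -1.63 (SE 0.31, 0.038) and Ccl3 at -1.16 (SE 0.20, 0.025). The PBS libraries of that set varied more, with 24.0 ± 15.9 CPM for Ptgs2, 28.8 ± 17.1 for Cxcl2 and 343 ± 137 for Ccl3. Against 65–79*PE 7 of 10 targets were called lower in the libraries labelled 65–79*SE and none higher (13.8% of all genes called), with Ptgs2 at -4.26 (SE 0.37, adjusted p 5.5e-06) and Nfkbiz at -1.95 (SE 0.12, 1.7e-07), beside Cd36 at -2.13 (SE 0.11, 3.0e-08).

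In replicates 1–3 of the Il-4 series 4 of 9 tested targets were called lower than PBS with each peptide, and 1, Ccl5, was called higher with 65–79*SE (1.1, SE 0.30, adjusted p 0.028), where 6.44% and 3.95% of all genes were called. Cxcl2 was at 23.4 ± 9.70 CPM in PBS and 7.28 ± 3.26 and 8.43 ± 1.14 with 65–79*SE and 65–79*PE (-1.67, adjusted p 0.010, and -1.46, 0.022), and Tnf at 44.0 ± 8.39, 20.7 ± 6.70 and 20.9 ± 7.72 CPM (-1.08, 0.026, and -1.06, 0.041). In replicates 4–6 0 of 8 targets were called by edgeR with either peptide. Ctss, an endosomal protease that processes the nucleic acid receptors, was at 1124 ± 161 CPM in the PBS libraries and 1811 ± 47.6 CPM in those with 65–79*PE (0.69, SE 0.13, adjusted p 0.020). Of the 13 kinases and ligases, 0 were called in either set of the Il-4 series by edgeR, and over both sets 1, Traf3, was called lower with 65–79*PE (-0.61, SE 0.15, adjusted p 0.013), where 4.35% of all genes were called. Ccl5 in the Il-4 series and Traf3 were chosen for naming after their values were seen.

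Genes whose pattern was most like that of a receptor were found by the correlation of log2 CPM, centred within each set, over the 18 libraries of a series. In the IFNγ series Tlr9 ran closest to Evl (Pearson r 0.997) and Ass1 (0.990), Tlr2 to Cyp51 (0.985) and Rassf3 (0.984), and Cd14 to Tpm4 (0.964) and Glul (0.945). Tlr1 ran closest to Ctsc (0.964) and BC017643 (0.961), Tlr13 to Il6ra (0.946) and Ctss (0.942), Tlr4 to Fam76b (0.904) and Celf2 (0.889), Tlr6 to Rhoq (0.897) and Zbtb14 (0.886), Tlr3 to Ctbs (0.890) and Klf3 (0.890), and Tlr8 to 9930111J21Rik2 (0.922) and Evi2a (0.906). Ass1, argininosuccinate synthase, makes the precursor of arginine, and Cyp51 is an enzyme of cholesterol synthesis. In the Il-4 series Tlr2 ran closest to Gfod1 (0.952) and Spata13 (0.937), Tlr8 to Dse (0.948) and Hnrnpll (0.932), Cd14 to Terf2 (0.956) and Nfkbid (0.956), and Tlr13 to Dock1 (0.955). The libraries share arms and sets, so these values describe 18 libraries and carry no test.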

How the data were processed

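The authors isolated total RNA, made stranded mRNA libraries, read them single-end and used featureCounts (Rsubread) with Gencode annotation to count the reads that aligned uniquely. The deposited counts, 1 table of 18 libraries per series, are whole numbers that were not normalized. The aligner and strand setting are not given in the sources used here. Of 49568 gene rows, 47214 (95.25%) matched a symbol in GENCODE M21 (GRCm38), used for positions and lengths, and 26 names had become dates.

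Counts were tested in R 4.3.3 with edgeR 4.0.16 (glmQLFit, glmQLFTest, TMM, filterByExpr), which kept 12350 to 15949 genes, and up to 16845 in the fits of differences. Each contrast was fitted in the 9 libraries of a set and over 18 libraries with the set as a term. Genes were called at a Benjamini-Hochberg adjusted p under 0.05 over all genes kept and a fold over 1.5, and differences between sets or series at the adjusted p alone. A second model of 18 libraries tested differences between sets, and a model of one set over both tables tested differences between series, each table with its own PBS. The SE of a log2 fold change was derived as its absolute value over the square root of the F statistic of its test. Intervals are 95%, from that SE and the t distribution with the degrees of freedom of the same fits. CPM were TMM scaled over the 18 libraries of a table. The scripts were tested on simulated data.

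The genes and lists were chosen with earlier results of these data known. All 10 genes were tested in each contrast. Every called gene is named, and in contrasts within a set also every gene past the adjusted p alone. The remaining genes are not named in every contrast. Of the lists, up to 3 called genes per contrast and set are named, with the largest change and a mean of at least 10 CPM. Some of the genes with the most similar pattern are not reported here. Sets follow the naming schemes of the labels. Replicates 1–3 carry single letters in both series. Names of replicates 4–6 follow 1 scheme in the IFNγ series and another in the Il-4 series. The study states 6 biological replicates in 2 independent experiments of 1 cell line, so p-values measure the spread between these cultures. Each result was also computed with RLE size factors, a replicate block and leaving out each replicate number. Contrasts within a set or pooled, but not differences between sets or series, were also computed with DESeq2 1.42.0 and with no filter. Those within a set were also run with 18 libraries in the fit, and pooled ones with no set term. Chosen after seeing the data, the libraries labelled 65–79*SE, replicates 4–6, were left out. This was done for the pooled IFNγ contrasts and for 65–79*PE against PBS in replicates 4–6 of that series. A count of 0 allows up to 3 counts at 95% confidence, 0.0475 to 0.1452 CPM across the IFNγ libraries, and 0.0979 to 0.176 CPM for Il-4, for counting error only. The closest replicates differed by a chi-square per degree of freedom of 5.23, so no libraries were merged.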

Additional observations from a re-analysis of the deposited data

Results flagged for a closer look

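One library stood apart within its group of 6, Tlr3 in the Il-4 series with 65–79*SE, replicate 4, at 9.08 CPM, while chance alone would set apart about 1 in 20 such groups.

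In the IFNγ series the change against PBS or between peptides differed between replicates 1–3 and replicates 4–6 (log2, replicates 1–3 minus replicates 4–6, edgeR adjusted p under 0.05). For 65–79*SE against PBS these were Tlr9 (2.20), Tlr1 (0.40), Tlr8 (-1.75), Tlr7 (-1.29), Tlr13 (-1.18), Tlr2 (-1.05), Cd14 (-0.39) and Tlr6 (-0.31). For 65–79*PE against PBS they were Tlr8 (-2.70), Tlr13 (-0.96), Tlr7 (-0.84), Tlr4 (-0.77), Tlr9 (-0.53), Tlr2 (-0.42) and Tlr1 (-0.40). The Tlr1 difference for 65–79*PE was lost with the replicate block (-0.39, adjusted p 0.051) and without replicate 1, 2, 3, 4 or 5 (-0.26 to -0.42). Also for 65–79*PE, Tlr2 was lost without replicate 1, 5 or 6, Tlr9 without 3, 5 or 6 and Tlr4 without 1 or 4. For 65–79*SE against PBS, Tlr6 was lost without replicate 1, 3, 4, 5 or 6 and Cd14 without 1, 2, 4 or 6. Tlr1 was lost there without replicate 1 or 3, and Tlr8 without replicate 1 (-1.05, adjusted p 0.18). For 65–79*SE against 65–79*PE the differences were Tlr9 (2.72), Tlr1 (0.79) and Tlr2 (-0.63), and these kept their calls in all 8 alternatives. The libraries labelled 65–79*SE, replicates 4–6, which did not carry the IFNγ response, enter the first and the last of these comparisons and not the second.

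The change also differed between the series (log2, IFNγ minus Il-4). In replicates 1–3 these were, for 65–79*SE against PBS, Tlr9 (2.52), Tlr8 (-2.14) and Tlr13 (-0.48), and for 65–79*PE against PBS, Tlr9 (2.05), Tlr2 (0.56), Tlr8 (-2.6), Tlr13 (-0.57) and Tlr6 (-0.37). In replicates 4–6 they were Tlr2 (1.05) for 65–79*SE against PBS, and Tlr9 (2.47), Tlr2 (0.68), Tlr1 (0.60) and Tlr6 (-0.40) for 65–79*PE against PBS. Between the peptides in replicates 4–6 they were Tlr9 (-2.06), Tlr1 (-0.88), Cd14 (0.64) and Tlr7 (0.40). Without replicate 1 the Tlr13 differences in replicates 1–3 were -0.20 (adjusted p 0.22) and -0.19 (0.31). The differences of Tlr9 and Tlr8 for 65–79*PE and of Tlr9 for 65–79*SE in replicates 1–3, and of Tlr1 between the peptides in replicates 4–6, kept their calls in the 5 alternatives run on each, while each of the others was lost without at least 1 replicate number. The labels do not say whether cultures of the 2 series were grown together.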

How the results depend on the processing

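No called value of the 10 genes changed sign under any alternative run. The count of called genes with 65–79*SE against PBS in replicates 4–6 of the IFNγ series went from 0 to 1 (Tlr8) with DESeq2 and with no low count filter. The count for 65–79*SE against 65–79*PE in replicates 1–3 went from 0 to 1 (Tlr9) with 18 libraries in the fit. With no filter, 1 gene (Tlr8) was also called between the peptides over all libraries of the IFNγ series, over all of the Il-4 series and in replicates 4–6 of the Il-4 series. The pooled count with 65–79*SE in the IFNγ series, 1, was 0 with the replicate block or with no set term and 3 with the libraries labelled 65–79*SE, replicates 4–6, left out, and in the Il-4 series 2 became 1 with no set term. The cause was not tested. Leaving out 1 replicate number moved the called counts over these ranges. In the IFNγ series they were 1 to 4 for 65–79*PE in replicates 1–3, 0 to 1 between the peptides in replicates 1–3 and 0 to 1 for 65–79*SE pooled. In the Il-4 series they were 0 to 3 and 0 to 2 for the SE and the PE peptide in replicates 1–3 and 0 to 2 for both in replicates 4–6. Differences between sets ran over 4 to 7, 4 to 6 and 3 to 5 in the IFNγ series (SE against PBS, PE against PBS, SE against PE) and 0 to 1 for 65–79*SE in the Il-4 series. Differences between series ran over 2 to 6 for 65–79*PE in replicates 1–3 and over 0 to 1, 0 to 3 and 1 to 3 for the SE peptide, the PE peptide and the one against the other in replicates 4–6. Fewer libraries enter each of these fits.

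Replicate numbers were shared across groups. Deviations of same-numbered libraries correlated above 0.1 in all 3 pairs for only 3 of the 12 pairs of groups within a set, all in the Il-4 series, so the numbers were not taken as pairs. With the replicate block the count between sets for 65–79*SE in the Il-4 series went from 0 to 1, and between series for 65–79*SE from 3 to 5 in replicates 1–3 and from 1 to 2 in replicates 4–6, and beside the pooled 65–79*SE count above no other count moved by over 1.5 times. Tlr8 in the IFNγ series rests on few reads, and its intervals are the widest there.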
